A study of Mus musculus with 2 samples.

Results

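Open chromatin at 10 cyclic nucleotide phosphodiesterase genes of the mouse, Pde4a, Pde4b, Pde4c, Pde4d, Pde8a, Pde8b, Pde11a, Pde2a, Pde3a and Pde3b, was described in the adrenal gland. The genes were 10 of the 21884 protein-coding genes of the annotation. Pde4d was chosen from the number of DNase I hypersensitive sites (DHSs) that an earlier look at the same libraries had assigned to it, and the other 9 were taken by family name. Each DHS that touched a gene body or the 20 kb on either side was counted for that gene, which gave 253 of 130945 DHSs in replicate 1 and 269 of 157786 in replicate 2. Of the 10 genes, 9 had an open start in each library, Pde4c being the exception, against 69.2% and 68.9% of all protein-coding genes. In Pde4d, a gene of 1504 kb, the summed height of DHSs was greatest from 1300 to 1500 kb. In both libraries 6 of its 12 protein-coding starts were open, against 61.4% of all protein-coding starts.

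The tissue was labelled as male B6CASTF1/J mouse aged 25 days, an F1 hybrid of the strains B6 and CAST, and gave 2 DNase-seq libraries. In DNase-seq, nuclei are treated with DNase I and the stretches cut most often are called as DHSs. Both libraries form a single group with no treatment, mutant or second tissue, so no comparison between conditions exists, no test was made, and every value is given for replicate 1 and then for replicate 2. The labels call the libraries biological replicates but give both the same donor code. Whether they came from separate animals could not be settled, so the differences between them may be technical. Every cell type of the gland contributed to each library, and a site open in few cells and a site weakly open in many cells cannot be told apart.

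Phosphodiesterases hydrolyse cyclic AMP, cyclic GMP or both, and so end the signals that adenylyl and guanylyl cyclases start. In the adrenal cortex, corticotropin acts through its receptor and cyclic AMP to drive steroid hormone synthesis, and the phosphodiesterases present set how far and how long cyclic AMP rises. The Pde4 genes encode cyclic AMP-specific enzymes and use many alternative starts. Long forms of these enzymes carry a regulatory region with a protein kinase A site that short forms lack. Pde8a and Pde8b encode high-affinity cyclic AMP-specific enzymes, Pde11a and Pde2a encode enzymes that act on both cyclic nucleotides, and Pde3a and Pde3b encode cyclic AMP enzymes that cyclic GMP inhibits. Variants of the human genes PDE11A and PDE8B have been described in adrenocortical disease.

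The longer deposited peak lists covered 22.6 Mb in replicate 1 and 23.5 Mb in replicate 2. Height is the peak signal that the authors deposited, and each height was an integer number of a library-specific step, to within 0.05 of that step. Read as CPM, which is an inference from the values, the steps of 0.00833 and 0.00888 correspond to totals of 120 and 113 M counts. The median DHS had a height of 1.01 or 121 steps in replicate 1 and 0.720 or 81 steps in replicate 2, so the median height was lower in replicate 2. As a check of the labelled tissue, all 6 cortical markers had an open start in both libraries, as did the medulla markers Th, Dbh and Chga, while none of the 2 kidney and 2 liver markers did.

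Pde4d, which encodes a cyclic AMP-specific phosphodiesterase, spans chromosome 13, 108449948 to 109953461 on the plus strand (mm10). Its region held 72 DHSs in replicate 1 and 85 in replicate 2, and all but 1 in each library lay in the gene body. That number ranked 7 among all protein-coding genes when the counts of both libraries were averaged, while per length the gene was ordinary among all genes. It had 4.66 and 5.51 DHSs per 100 kb, more than 30.2% and 30.3% of all genes. Long genes hold fewer DHSs per length, and of the 55 genes within 1.5 times its length, itself included here and in the like counts below, 89.1% had a lower density in each library, with medians of 2.18 and 3.88. These counts and densities belong to the measure on which Pde4d was chosen and are a description only. Among the 230 genes of 500 kb or more, the genes nearest to it in mean density (5.09) were Nbea with 5.10, Ptprm with 5.02 and Lrmda with 4.97, against a median of 3.45.

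Sequences of 2 Pde4d DHSs that both libraries shared are printed. They are the strongest at a start, and the strongest away from starts with a match to the cyclic AMP response element (CRE). The first lay at the start 1453 kb into the gene, chr13:109903181-109903440, with heights of 3.52 in replicate 1 and 2.02 in replicate 2. The second lay in an intron 1373 kb into the gene, chr13:109822421-109822620, with heights of 7.49 and 6.31. The median heights of all Pde4d DHSs were 0.704 and 0.551, so this DHS does not stand for the open introns in general. Other Pde4d DHSs also held a CRE match. Among them were an intronic DHS of replicate 2 (109761180 to 109761290) and an exonic DHS (109951521 to 109951700 in replicate 1). Sequences here are from the plus strand of the C57BL/6J reference genome (RefSeq, GRCm38.p6), with capitals only where a searched consensus matched on either strand. Base differences of the CAST genome were not examined.
Pde4d start DHS: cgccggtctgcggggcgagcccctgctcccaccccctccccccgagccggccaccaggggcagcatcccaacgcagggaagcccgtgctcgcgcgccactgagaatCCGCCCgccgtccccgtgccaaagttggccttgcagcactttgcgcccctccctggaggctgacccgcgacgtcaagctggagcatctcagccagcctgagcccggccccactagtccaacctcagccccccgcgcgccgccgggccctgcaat
Pde4d intronic DHS: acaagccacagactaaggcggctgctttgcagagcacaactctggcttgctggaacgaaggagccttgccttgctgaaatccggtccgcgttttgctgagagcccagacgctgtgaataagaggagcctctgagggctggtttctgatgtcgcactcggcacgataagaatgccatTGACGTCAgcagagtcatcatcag
The capitals in the start DHS mark 1 GC box (GGGCGG or its reverse complement), at 109903287 to 109903292, in no footprint of either library. Those in the intronic DHS mark the CRE consensus TGACGTCA at 109822597 to 109822604, which lay in a footprint in both libraries. A footprint is a short stretch protected from cutting, as the authors called it. A match is a run of letters and does not show which protein was bound.

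Along Pde4d, DHSs were sparse in the first 100 kb, among other stretches. Their summed height was greatest from 1300 to 1500 kb, without a steady rise between. The 100 kb from 1000 to 1100 kb held 2 DHSs in each library, against 8 in replicate 1 and 7 in replicate 2 from 700 to 800 kb. The last 500 kb, 33.3% of the length, held 37 of the 71 DHSs of the gene body in replicate 1 (52.1%) and 41 of 84 in replicate 2 (48.8%). The 100 kb from 1400 to 1500 kb held 12 and 16 DHSs with summed heights of 25.4 and 19.7, and 12 of them in each library overlapped a DHS of the other. The 100 kb before that, from 1300 to 1400 kb, held 8 and 14 DHSs with summed heights of 19.0 and 16.2. By contrast, the first 100 kb held 0 DHSs in replicate 1 and 3 in replicate 2, with a summed height of 1.12 and none shared. The 100 kb from 500 to 600 kb also held 0 DHSs in replicate 1, as did that from 400 to 500 kb in replicate 2. The longest stretch with no DHS ran over the first 149 kb in replicate 1 and over 128 kb, from 385 to 513 kb, in replicate 2.

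**Figure D1:**
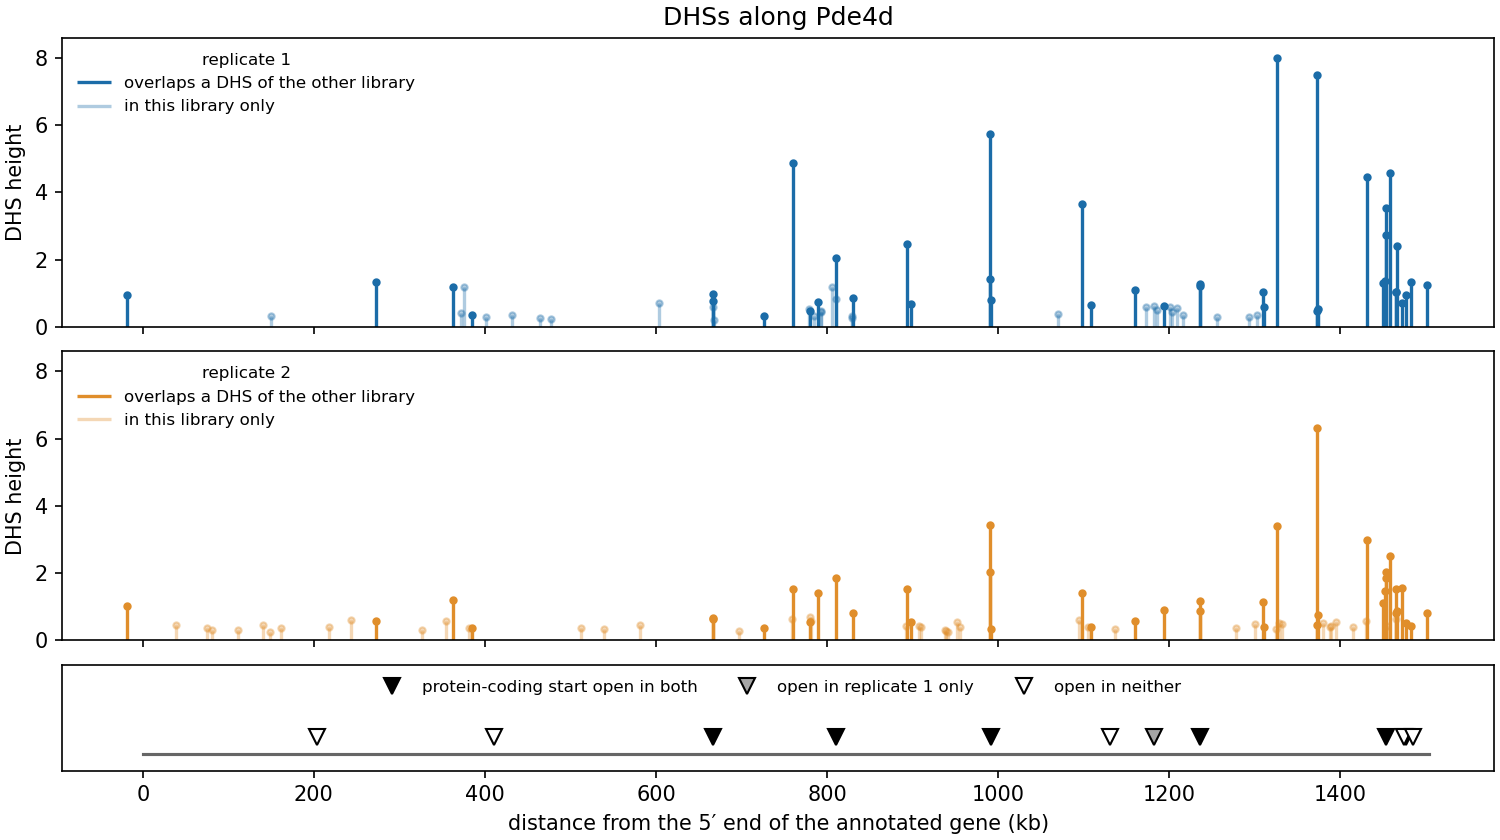
Height of each DHS (deposited signal) against its distance from the 5′ end of Pde4d in kb, for replicate 1 (top) and replicate 2 (middle), dark where a DHS overlapped one of the other library and pale where it did not, with the protein-coding starts as triangles (bottom). The tallest line stands at 1326 kb in replicate 1 (8.0) and at 1373 kb in replicate 2 (6.31), and lines crowd near 1453 kb in both, while the first 600 kb hold low and mostly pale lines.

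The highest DHS of Pde4d in replicate 1 was intronic, 1326 kb into the gene (109776201 to 109776360), with a height of 8.0, against 3.41 for the DHS overlapping it in replicate 2. It held a match to the CTCF core consensus in both libraries. The DHS with the CRE printed above was the highest of replicate 2 and the second highest of replicate 1. Another strong DHS lay 991 kb into the gene (109440961 to 109441120 in replicate 1), with heights of 5.73 and 3.44, just upstream of the 1 kb window of a start. In replicate 1, 77.8% of the Pde4d DHSs were intronic and in replicate 2 85.9%, against 32.7% and 30.9% of all DHSs. Pde4d is mostly intron by length, and this share was not set against that length.

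A start was called open when a DHS came within 1 kb of it, and its height is that of the strongest such DHS. Pde4d has 12 protein-coding starts, and the first of them lies 204 kb inside the annotated gene, whose 5′ end belongs to non-coding transcripts. In both libraries 6 of the 12 were open, against 61.4% of all protein-coding starts, while 1 was open in replicate 1 only and 5 in neither. Among the open starts of the long forms, the start at 667 kb, of a protein of 803 residues, had heights of 0.983 in replicate 1 and 0.675 in replicate 2. The start at 811 kb, whose annotated coding sequence of 753 residues is incomplete, had heights of 2.06 and 1.86. The start at 992 kb (703 residues) had 0.783 and 0.329, and the start at 1236 kb (678 residues) had 1.26 and 1.18. The highest start of the gene was that at 1453 kb, of a short protein of 584 residues, with 3.52 and 2.02. At the starts at 667 and 1236 kb the strongest DHSs of the libraries did not overlap, and the paired heights there are of different sites.

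Near the 3′ end of Pde4d, 2 further starts of short proteins lie close together and differed. The start at 1477 kb (517 residues) had heights of 0.933 in replicate 1 and 0.524 in replicate 2, while that at 1475 kb (504 residues) had no DHS within 1 kb in either library. No DHS was called within 1 kb of the 2 first starts either, at 204 and 410 kb, each of a protein of 747 residues. The starts at 1131 kb (698 residues) and 1485 kb (206 residues, incomplete) were likewise without a DHS. The start at 1183 kb (700 residues, incomplete) had a height of 0.617 in replicate 1 and none in replicate 2. With the shorter peak list, the starts at 992 and 1477 kb were no longer open in replicate 2.

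Over all 10 genes, 29 of 44 protein-coding starts were open in replicate 1 (65.9%) and 22 in replicate 2 (50%), against 65.3% and 64.7% of all 54236 protein-coding starts of the annotation. Every start open in replicate 2 was also open in replicate 1, so 22 were open in both, beside 61.4% of all starts, and 15 in neither. At the level of genes, 9 of 10 had an open start in each library and in both, against 69.2% of all genes in replicate 1, 68.9% in replicate 2 and 65.6% in both. The counts of genes here were not matched for the number of starts, and a gene with more starts has more chances of an open one. The other 14 Pde1 to Pde10 genes had an open start in 8 cases in replicate 1 and 7 in replicate 2. Those closed in both were Pde1a, Pde6a, Pde6b, Pde6c, Pde6g and Pde6h, and the Pde6 genes named here encode subunits of the photoreceptor enzyme. Of the genes Adcy1 to Adcy10, which encode the adenylyl cyclases that make cyclic AMP, 9 of 10 were open in each library.

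**Figure D2:**
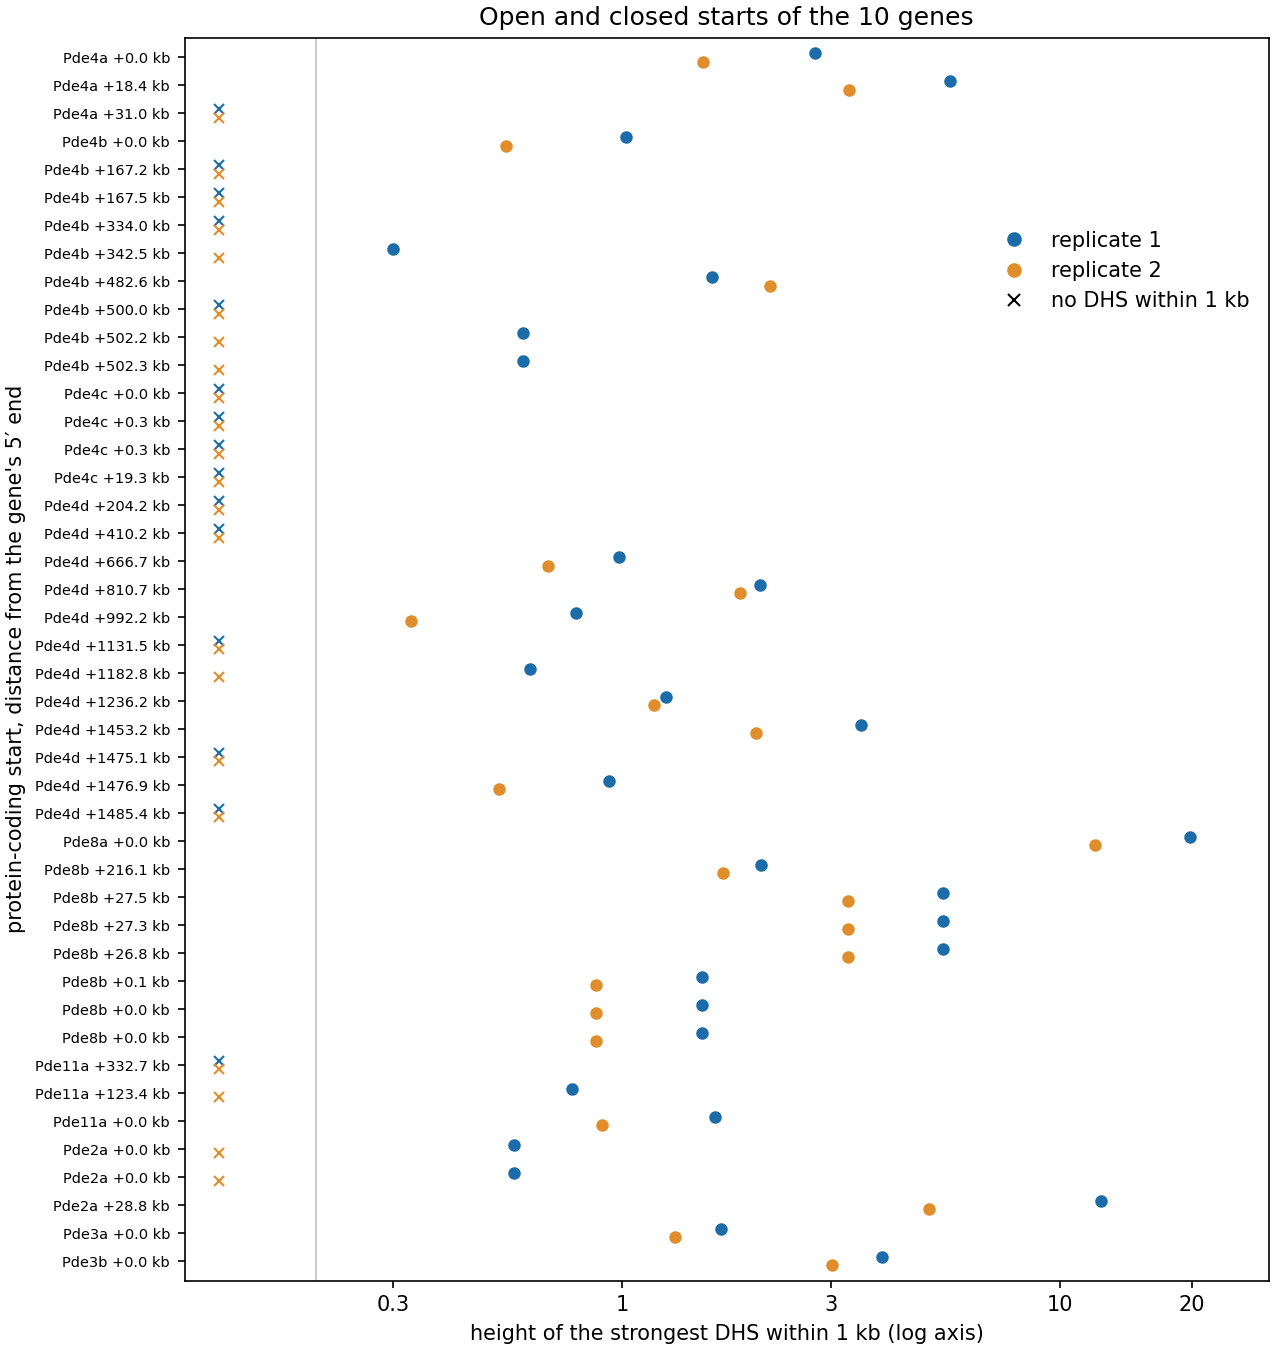
Height of the strongest DHS within 1 kb of each of the 44 protein-coding starts of the 10 genes (log axis, deposited signal), named by distance from the gene's 5′ end, for replicate 1 and replicate 2, with crosses left of the line where no DHS was called. The single start of Pde8a stands highest (19.8 and 12), all 4 starts of Pde4c carry crosses only, and Pde4b and Pde4d hold open and closed starts side by side.

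CpG content had a higher median at the open starts of the 10 genes than at the closed ones. Within 500 bp on either side, the median ratio of observed to expected CpG was 0.470 for the 22 starts open in both libraries and 0.250 for the 15 open in neither. The start of Pde8a had 1.15, that of Pde3b 1.00, and that of Pde4d at 1453 kb 0.870. Starts a few bases apart share most of their window, so these ratios are not independent.

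Pde4a, on chromosome 9, 21165714 to 21213248, encodes another cyclic AMP-specific enzyme and had 20 DHSs in replicate 1 and 16 in replicate 2. Its density of 22.8 and 18.3 per 100 kb exceeded that of 96.6% and 92.2% of the 3790 genes of like length. The start at the 5′ end (844 residues) had heights of 2.75 and 1.53, and the start 18.4 kb inside (787 residues) was higher, with 5.62 and 3.30. The start at 31.0 kb (610 residues), of the shortest protein, had no DHS within 1 kb in either library. The strongest sites of the region were a DHS at the start of the neighbour Cdc37 (13 and 8.93), a DHS in the downstream flank (10.8 and 7.21) and a DHS in the upstream flank (8.77 and 4.78).

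Pde4b, on chromosome 4, 102087543 to 102607259, had 26 DHSs in replicate 1 and 35 in replicate 2, or 4.65 and 6.25 per 100 kb, above 60.9% and 73.9% of 345 genes of like length. Of its 9 protein-coding starts, 2 were open in both libraries. The start at the 5′ end (736 residues) had heights of 1.02 and 0.542, and that at 483 kb (564 residues, a short form) had 1.6 and 2.18, the higher value falling in replicate 2. At both of these starts the strongest DHSs of the libraries did not overlap, so the paired heights are of different sites near the same start. A further 3 starts, at 343 kb and a pair at 502 kb, were open in replicate 1 only, at heights of 0.30 and 0.592. The strongest DHS of replicate 1 was intronic (102533301 to 102533460), with a height of 5.07 against 1.71 in replicate 2. In replicate 2 the strongest was another intronic DHS (102517081 to 102517280), with 2.25, against 0.642 in replicate 1, so the order of the leading sites differed between the libraries.

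Pde4c, on chromosome 8, 70723720 to 70751186, had the highest density of the 10 genes in its region and no open start. It had 29 and 16 DHSs, or 43.0 and 23.7 per 100 kb, above 99.7% and 95.0% of 4700 genes of like length. Only 2 of them in replicate 1 and 1 in replicate 2 lay in the gene body, however. In the gene body alone the density was 7.28 and 3.64 per 100 kb, above 38.4% and 17.4% of genes of like length. The strongest sites of the region were at the starts of its neighbours, namely Pik3r2 (22.6 and 9.07), Rab3a (13.7 and 12.7) and Mpv17l2 (11.7 and 12.5). The nearest DHS to any of its 4 protein-coding starts lay 1499 bp away in replicate 1 and 1459 bp in replicate 2. At an FDR of 0.05 or less, only 20 bases within 1 kb of these starts were listed in replicate 1 and none in replicate 2. The DHS within the gene body that both libraries shared, 20.8 kb from the 5′ end, had heights of 3.74 and 3.68.

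**Figure D3:**
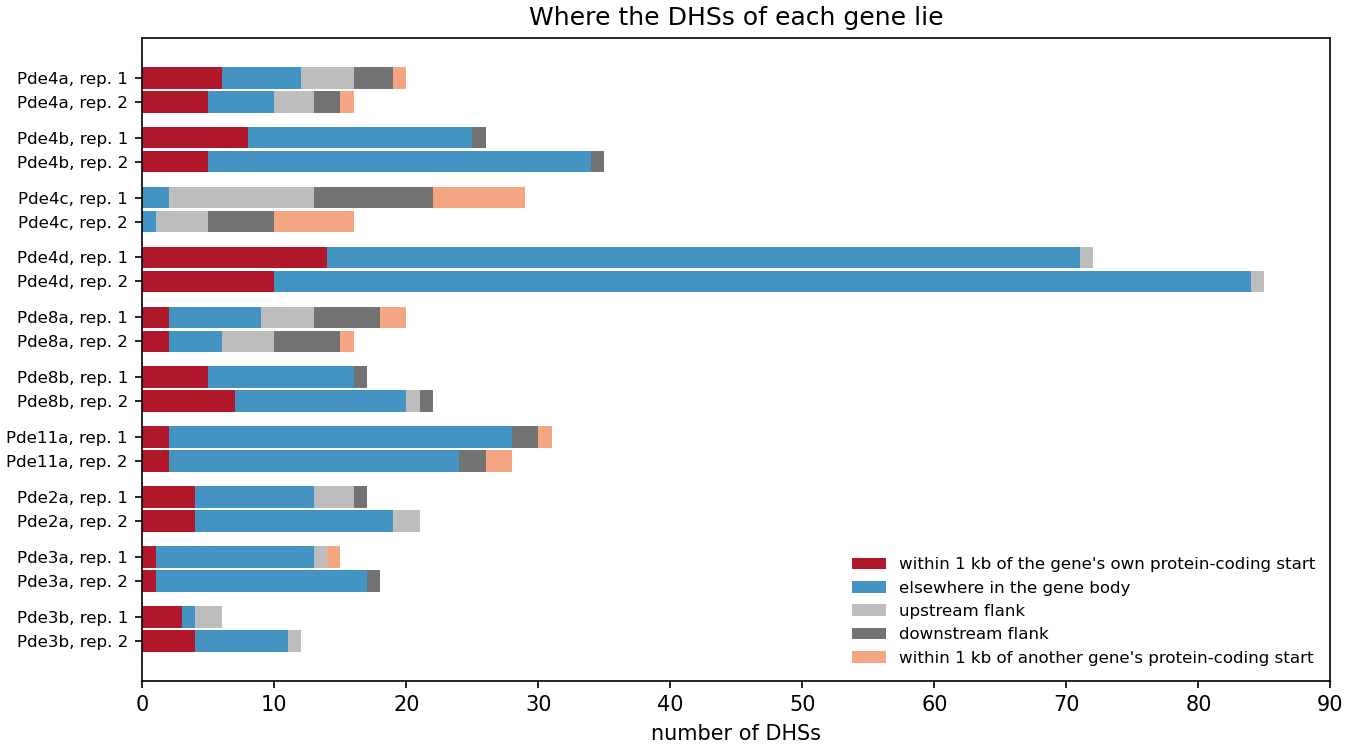
Number of DHSs of each gene in replicate 1 and replicate 2, split by place: within 1 kb of the gene's own protein-coding start, elsewhere in the gene body, in the upstream or downstream flank of 20 kb, or within 1 kb of another gene's protein-coding start. Pde4d has 72 and 85 DHSs, nearly all in the gene body, while for Pde4c only 2 and 1 are in the gene body.

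The Pde8 genes encode high-affinity cyclic AMP enzymes and were open at their starts in both libraries. Start and flank DHSs are printed for Pde8b, because 3 neighbouring starts share it, and for Pde8a, because it holds a match to the consensus of SF-1, the nuclear receptor of steroid-producing cells. The first lay at chr13:95223041-95223260, on the plus strand while Pde8b runs on the minus strand. The second lay at chr7:81211821-81212000, 1.69 kb upstream of Pde8a. It was the strongest shared DHS away from starts with an SF-1 match, and not the only one. Shared intronic DHSs of Pde8b (95099398 to 95099640 and 95125925 to 95126095) and of Pde4d (109916101 to 109916260), positions of replicate 1, also held such a match.
Pde8b start DHS: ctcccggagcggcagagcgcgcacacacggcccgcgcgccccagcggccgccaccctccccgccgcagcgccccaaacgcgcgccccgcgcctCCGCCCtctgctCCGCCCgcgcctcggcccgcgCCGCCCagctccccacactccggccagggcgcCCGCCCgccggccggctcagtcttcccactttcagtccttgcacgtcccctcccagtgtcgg
Pde8a upstream DHS: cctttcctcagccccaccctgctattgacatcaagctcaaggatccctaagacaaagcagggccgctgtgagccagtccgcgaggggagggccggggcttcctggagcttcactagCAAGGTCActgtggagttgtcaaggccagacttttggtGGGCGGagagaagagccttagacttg
Capitals mark 4 GC boxes in the Pde8b DHS, of which that at 95223167 to 95223172 lay in a footprint in both libraries. In the Pde8a DHS they mark the SF-1 consensus CAAGGTCA at 81211937 to 81211944, in a footprint in both libraries, and a GC box at 81211975 to 81211980, in a footprint in replicate 1 only.

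Pde8a, on chromosome 7, 81213596 to 81334533, has a single protein-coding start, and this was the highest of the 44 starts of the 10 genes in both libraries. Its height was 19.8 in replicate 1 and 12 in replicate 2. The upstream DHS with the SF-1 consensus had heights of 2.67 and 2.72. In all the gene had 20 and 16 DHSs, or 12.4 and 9.94 per 100 kb, above 84.6% and 74.0% of 2017 genes of like length, but the gene body held only 8 and 5 of them. In the gene body alone the density was 6.61 and 4.13 per 100 kb, above 51.2% and 18.6% of genes of like length.

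Pde8b, on chromosome 13, 95024454 to 95250336 on the minus strand, had 17 DHSs in replicate 1 and 22 in replicate 2. All 17 DHSs of replicate 1 overlapped one of replicate 2, and 17 of 22 the other way, the highest sharing of the 10 genes in replicate 1. All 7 of its protein-coding starts were open in both libraries, in 3 groups. The starts 26.8 to 27.5 kb inside, of proteins of up to 865 residues, had the DHS printed above, with heights of 5.42 and 3.28. Those within 62 bp of the 5′ end had 1.52 and 0.871, and the start at 216 kb, with an incomplete coding sequence, had 2.08 and 1.70. An intronic DHS 75.9 kb from the 5′ end was the strongest of replicate 2 with 3.40, against 2.01 in replicate 1. Its density was 6.39 and 8.27 per 100 kb, above 54.7% and 72.5% of 994 genes of like length.

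Pde11a, on chromosome 2, 75989141 to 76338774 on the minus strand, encodes an enzyme that hydrolyses both cyclic nucleotides. It had 31 DHSs in replicate 1 and 28 in replicate 2, or 7.96 and 7.19 per 100 kb, above 79.9% and 74.5% of 596 genes of like length. The start at the 5′ end, of the longest protein (933 residues), was open with heights of 1.63 and 0.897. The start at 123 kb (443 residues, incomplete) had 0.767 in replicate 1 and none in replicate 2, and that at 333 kb (71 residues, incomplete) had none in either. Its strongest sites lay instead at the 3′ side. A DHS in an exon (75991041 to 75991200) had heights of 6.44 and 2.21, and an intronic DHS with a CTCF core match (76001501 to 76001660) had 5.6 and 2.71. A further intronic DHS 254 kb from the 5′ end, with a match to the NFI palindrome (TGGC and GCCA separated by 5 bases), had 3.92 and 2.5.

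Pde2a encodes an enzyme that cyclic GMP stimulates and that can thereby lower cyclic AMP when cyclic GMP rises, and Pde3b encodes an enzyme that cyclic GMP inhibits. The strongest shared start DHS of each is printed, since each, or the DHS overlapping it, is the highest of its gene in both libraries. Positions are those of replicate 1. That of Pde2a lay at chr7:101450461-101450620 and held no match to any of the 10 consensus sequences searched, and that of Pde3b lay at chr7:114415121-114415340 and held 1 GC box, in capitals.
Pde2a start DHS: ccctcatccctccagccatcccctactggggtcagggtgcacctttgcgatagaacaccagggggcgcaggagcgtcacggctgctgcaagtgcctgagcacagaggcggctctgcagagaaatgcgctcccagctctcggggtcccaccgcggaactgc
Pde3b start DHS: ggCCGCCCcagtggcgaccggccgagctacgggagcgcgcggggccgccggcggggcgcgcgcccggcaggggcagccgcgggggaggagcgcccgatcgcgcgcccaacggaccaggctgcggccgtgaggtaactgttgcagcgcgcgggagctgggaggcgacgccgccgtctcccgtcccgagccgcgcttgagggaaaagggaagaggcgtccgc
Neither sequence was searched for other motifs, so the lack of a match in Pde2a says only that those letters were not in this window.

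At Pde2a, on chromosome 7, 101421691 to 101512827, the open start was an internal one. The start 28.8 kb inside, of a protein of 945 residues, had heights of 12.4 in replicate 1 and 5.02 in replicate 2. The starts at the 5′ end and 18 bp from it, of proteins of 939 and 935 residues, shared a DHS of 0.567 in replicate 1 and had none in replicate 2. The gene had 17 and 21 DHSs, or 13 and 16 per 100 kb, above 84.4% and 93.6% of 2509 genes of like length. Its second strongest site lay 8.69 kb upstream (101412921 to 101413080), with heights of 6.28 and 3.94 and a CTCF core match.

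Counted with the 20 kb flanks, the Pde3 genes stood lowest of the 10 in density among genes of like length. In the gene body alone they did not in either library. In replicate 1 Pde4c (above 38.4% of genes of like length) stood below Pde3a (48.3%), while Pde3b (18.9%) was lowest. In replicate 2 Pde4c (17.4%) and Pde8a (18.6%) stood below Pde3a (58.5%) and Pde3b (53.6%). Pde3a, on chromosome 6, 141249269 to 141507448, encodes a form known from heart, platelets and oocytes and had 15 and 18 DHSs, or 5.03 and 6.04 per 100 kb, above 45.3% and 48.3% of 833 genes of like length. Its single start had heights of 1.68 in replicate 1 and 1.32 in replicate 2. Only 6 of its DHSs in each library overlapped one of the other, and its strongest site differed. In replicate 1 it was an intronic DHS (141447661 to 141447820) with 2.41, against 1.12 in replicate 2, and in replicate 2 an intronic DHS 84.2 kb from the 5′ end with 1.71, against 1.1 in replicate 1. Pde3b, on chromosome 7, 114415281 to 114539251, encodes a form known from fat and liver and had 6 and 12 DHSs, or 3.66 and 7.32 per 100 kb, above 18.3% and 49.5% of 1971 genes of like length. Its single start, with the DHS printed above, had heights of 3.93 and 3.01, and 5 of its DHSs in each library were shared.

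**Figure D4:**
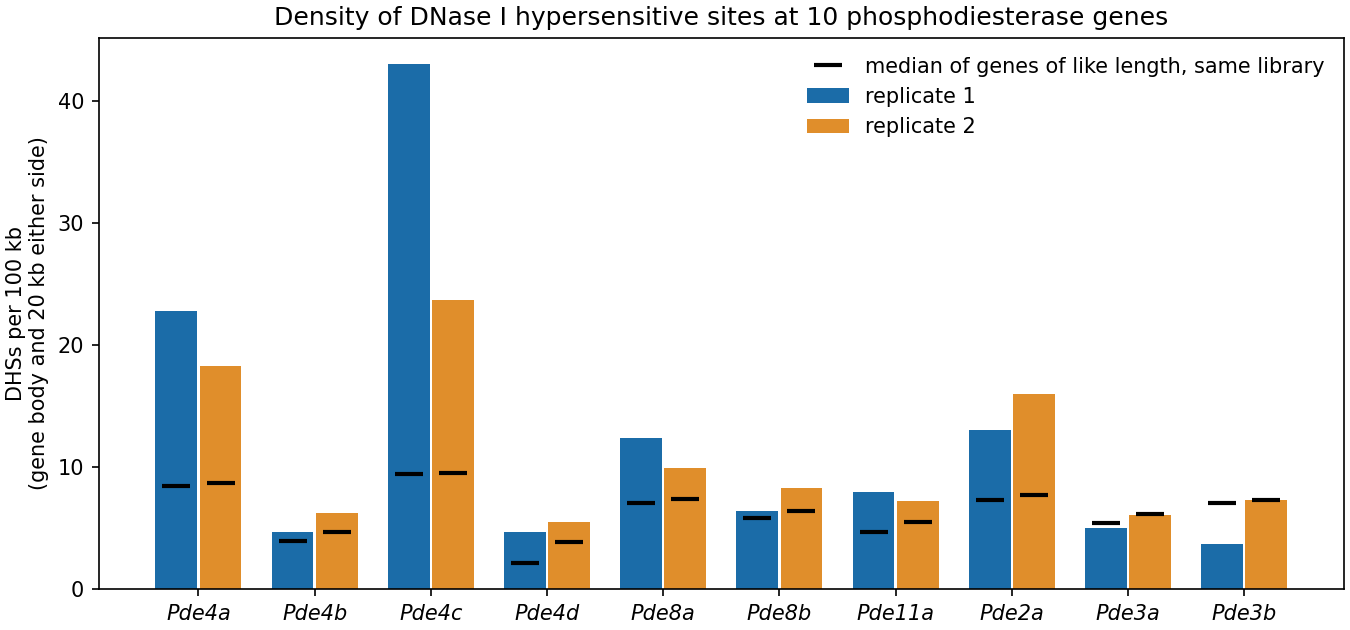
DHSs per 100 kb of gene body and 20 kb either side for the 10 genes, as bars for replicate 1 and replicate 2, with black lines at the median of genes of like length in the same library. Pde4c and Pde4a stand far above their lines, Pde4d with 4.66 and 5.51 above lines of 2.18 and 3.88, and Pde3a and Pde3b at or below theirs in both libraries.

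The median density of the 10 was 7.17 per 100 kb in replicate 1 and 7.80 in replicate 2, against 8.45 and 8.59 over all protein-coding genes. Long genes hold fewer DHSs per length, and none of the medians in this paragraph was matched for gene length. The other 14 phosphodiesterase genes had medians of 6.73 and 7.40. By the mean of both libraries, Pde6d (15.1 in each library) and Pde1b (11.9 and 8.95) were the highest of these and Pde6c (2.19 in each) and Pde1c (3.71 in each) the lowest. Adcy1 to Adcy10 had medians of 8.82 and 8.02.

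The authors' list of false discovery rates gave a further readout of the same cuts, which is not independent of the peak lists. Stretches at an FDR of 0.05 or less covered 17.5 kb of the Pde4d region in replicate 1 and 16.6 kb in replicate 2, or 1.13% and 1.07% of it. Among the 10 genes the share was highest for Pde4c (16.1% and 7.61%) and Pde4a (7.23% and 5.43%). The regions include the 20 kb flanks, and only 2 and 1 of the DHSs counted for Pde4c lay in its gene body. The shares were not set against those of genes of like length. For Pde3b it was 1.63% and 2.26%, and for Pde3a 1.24% and 1.14%.

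Of the DHSs of the 10 genes, 163 of 253 in replicate 1 (64.4%) and 162 of 269 in replicate 2 (60.2%) overlapped a DHS of the other library by at least 1 bp. Over all DHSs the shares were 62.2% and 51.8%. For Pde4d alone they were 42 of 72 (58.3%) and 42 of 85 (49.4%). Pde4a shared 15 of 20 and 15 of 16, Pde8a 14 of 20 and 14 of 16, Pde2a 14 of 17 and 14 of 21, and Pde11a 19 of 31 and 18 of 28. Sharing was lowest at Pde3a, with 6 of 15 and 6 of 18. Pde4b shared 16 of 26 and 16 of 35, and Pde4c 15 of 29 and 15 of 16.

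Sharing followed height. When all DHSs of a library were ranked by height into 4 groups of equal size, 16 of the 64 DHSs of the 10 genes in the lowest group of replicate 1 were shared (25.0%), 33 of 56 in the next (58.9%), 63 of 80 in the one above (78.8%) and 51 of 53 in the highest (96.2%). Over all DHSs of replicate 1 these shares were 24.4%, 48.2%, 79.0% and 97.9%. In replicate 2 the genes' DHSs were shared in 9 of 62, 22 of 62, 62 of 72 and 69 of 73 cases from the lowest group to the highest (14.5%, 35.5%, 86.1% and 94.5%), against 7.95%, 31.5%, 73.2% and 95.5% of all DHSs. Every Pde4d DHS in the highest group was shared in both libraries. In pairs of shared DHSs, the median log2 ratio of height in replicate 1 over replicate 2 was 0.30 for Pde4d, against 0.34 over all shared DHSs of replicate 1.

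**Figure D5:**
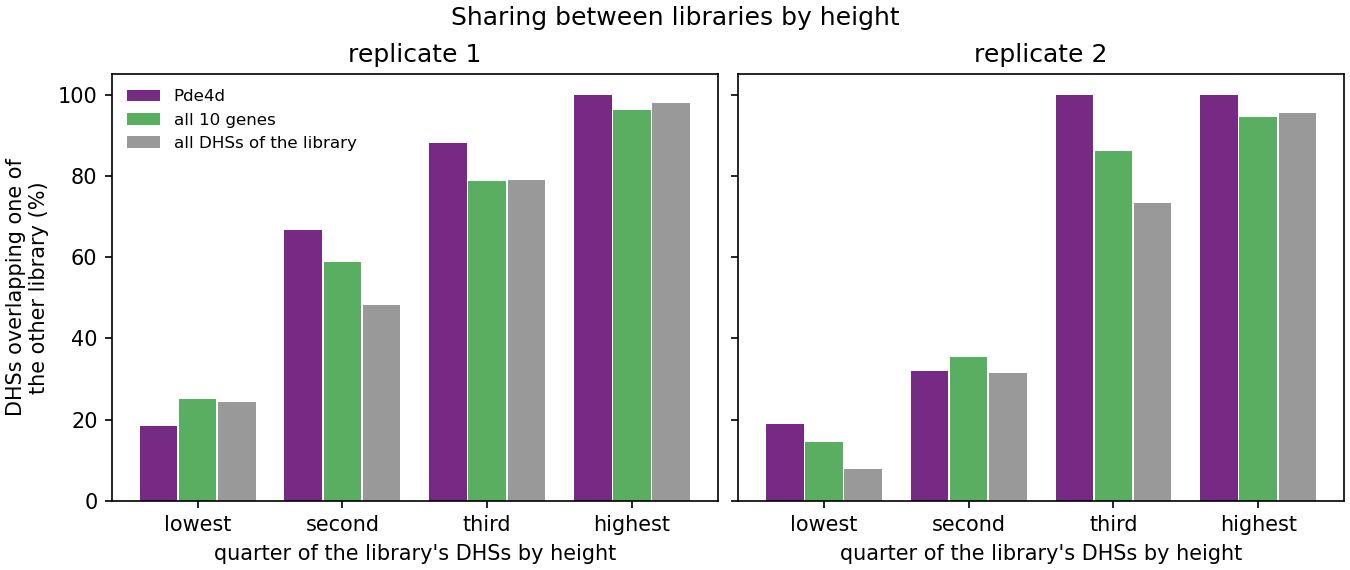
Share of DHSs (%) that overlapped a DHS of the other library, by height group of the library from lowest to highest, for Pde4d, all 10 genes and all DHSs, in replicate 1 (left) and replicate 2 (right). In all 3 sets the share is lowest in the lowest group, and for the 10 genes it reaches 96.2% and 94.5% in the highest group.

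The DHSs of Pde4d were lower than most. Their median height was 0.704 in replicate 1 and 0.551 in replicate 2, and that of all 10 genes' DHSs was 1.02 and 0.808, against 1.01 and 0.720 for all DHSs. At least 1 footprint was called in 49 of 72 DHSs of Pde4d (68.1%) and 48 of 85 (56.5%). Over the 10 genes it was 192 of 253 (75.9%) and 178 of 269 (66.2%), beside 77.6% and 63.1% of all DHSs. Lower DHSs have fewer cuts in which a footprint can be called, and the part of height in these shares was not tested.

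By place, 59.7% of the DHSs of the 10 genes were intronic in replicate 1 and 67.3% in replicate 2, against 32.7% and 30.9% of all DHSs, and 22.5% and 18.6% were promoter DHSs, less than 1 kb from such a start, against 24.0% and 20%. The choice of regions around genes raises the first share by construction. Median GC content was 53.8% and 52.9% in the DHSs of the 10 genes, against 55.3% and 53.3% in all DHSs. DHSs that were mostly repeat made up 2.77% and 5.95% of them, against 5.46% and 11% of all.

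Consensus sequences were searched on both strands in the central 150 bp of each DHS. The CRE (TGACGTCA) is a sequence through which cyclic AMP can act on genes, and other sequences were not counted as a CRE. It was in 2 DHSs of the 10 genes in replicate 1 (0.791%) and 4 in replicate 2 (1.49%), against 0.658% and 0.570% of all DHSs. With so few matches, no difference from the rest can be read. The CRE of the printed intronic Pde4d DHS fell outside the central 150 bp in replicate 1 and inside it in replicate 2. The SF-1 consensus (CAAGGTCA) was in 5 (1.98%) and 8 (2.97%), against 2.62% and 2.32% of all. AP-1 (TGANTCA) was in 21 (8.30%) and 24 (8.92%), against 11.1% and 9.65%, the GC box in 16.6% and 13.8%, against 17.4% and 13.8%, and the CTCF core in 2.77% and 2.97%, against 4.50% and 3.06%.

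The other consensus sequences were at shares above and below those of all DHSs. The sequence of the GATA factors (AGATAA) was in 5.53% and 4.09%, against 4.35% and 5.21% of all, so that its share was higher than that of all DHSs in replicate 1 and lower in replicate 2. The E-box (CACGTG), which the circadian clock proteins and several growth regulators can bind, was in 3.16% and 4.09%, against 4.03% and 3.51%, with the order of the shares likewise reversed between the libraries. For the sequence of the ETS family (CCGGAAG), the shares were 1.98% and 2.60%, against 2.88% and 2.62% of all DHSs in the same libraries. TEAD (GGAATG) was in 8.70% and 5.95%, against 8.31% and 8.47%, and the NFI palindrome in 4.35% and 3.35%, against 3.67% and 2.23%. None of these differences was tested.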

How the data were processed

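DNase-seq peak, footprint and false discovery rate lists of 2 adrenal libraries were analysed, all in mm10 per the file headers. The deposited peak height is a signal value made by the authors, whose scaling, aligner and callers are not given in the sources used for this work. The deposited false discovery rate list holds q-values (FDR) along the genome, and the authors' footprints carry an FDR threshold of 0.01. The longer of the 2 peak lists per library was the main one. Genes and starts came from GENCODE M21 on GRCm38.p6. Of the protein-coding genes, 54 with repeated symbols were left out, which left 21884 with 54236 distinct starts. Protein lengths are those of the annotated coding sequences.

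A gene's region was its body and 20 kb either side, and like length means within 1.5 times. A start was open when a DHS touched 1 kb either side. Sharing needed 1 bp. Scripts used Python 3.11.15, pandas 2.3.3 and numpy 2.4.6 and were tested on simulated data. The 10 genes, the lists and the consensus sequences were chosen with earlier results of these data known. Named were all 10 genes, the extremes of the other phosphodiesterases by mean density, the 3 long genes nearest to Pde4d, neighbours whose start a named DHS touches, the 2 strongest DHSs per gene and those at starts. Other DHSs, among them that at 991 kb of Pde4d and those of Pde4c's body and Pde11a at 254 kb, and genes closed in the lists, were named after their values were seen. Alternatives were the shorter peak list, other regions, windows and overlaps, the 50000 strongest DHSs and each library alone. Alignments and signal tracks were not used here. Some items are not reported here.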

Additional observations from a re-analysis of the deposited data

How the results depend on the processing

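With 1 group and 2 libraries no result had a test, and values below are means over both libraries, given as the other library alone where one was left out. No paired analysis was possible because there is a single group. The density of Pde4d, 5.09 per 100 kb, was 2.14 with the shorter peak list and 1.00 among the 50000 strongest DHSs, and 4.66 to 5.51 with 1 library left out. The share of like-length genes below it, 89.1%, was 90.9% with the shorter list, 91.8% for the gene body alone, 88.2% with 50 kb flanks, 90.9% without DHSs at starts of other genes and 88.2% among the strongest DHSs. The 9 genes with an open start in both libraries became 8 among the strongest DHSs and 10 with a window of 2 kb. The share of starts open, 58.0%, was 35.2% among the strongest DHSs and 50% to 65.9% with 1 library left out. Sharing, 62.3%, was 69.3% with the shorter list (57.8% in replicate 1, lower than with the longer list, and 80.9% in replicate 2, higher), 58.7% for centres within 75 bp and 73.9% among the strongest DHSs, and 60.2% to 64.4% with 1 library left out. The median height of 0.917 was 1.52 with the shorter list and 1.07 over the library's median, and 0.808 to 1.02 with 1 library left out. The share with a footprint, 71.0%, was 85.8% with the shorter list and 66.2% to 75.9% with 1 library left out. The share with a CRE, 1.14%, was 1.73% when the whole DHS was searched and 0.791% to 1.49% with 1 library left out, and that with an SF-1 consensus was 1.98% to 2.97%. Among the other 9 genes the density moved by more than the spread between libraries for 8 with the strongest DHSs, 7 with the shorter list, 3 for the gene body alone and 1 with 50 kb flanks. The shorter list and the strongest DHSs hold fewer DHSs by construction, and the cause of the other shifts was not tested. The number of libraries limits every value here, and DHSs near the lowest heights depend on depth.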
